A study of Mus musculus with 6 samples.

Results

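Lysosome and autophagy genes were read in 6 bulk RNA-seq libraries of mouse bone marrow cells, 3 from leukaemic cells (CML, chronic myeloid leukaemia) and 3 from wild-type cells (WT). The 39 members were the rows of the deposited gene table, of 29872 in all, whose symbol was on a fixed list: 21 lysosomal enzymes and membrane proteins, 2 TFEB family factors and 16 autophagy genes. All 39 were found, and all 39 had enough counts to be tested. Both groups came from the C57BL/6 background, were untreated, were expanded ex vivo, and were sorted as lineage-negative cells carrying Sca1, cKit and CD150, a gate for blood stem and early progenitor cells. The libraries labelled CML are called leukaemic stem cells in the labels and the WT libraries haematopoietic stem cells. The allele or transgene behind the leukaemia, the age of the animals, the length of the culture and the order of sorting and expansion are not stated in the sources used here. The labels do not say that replicates came from separate animals or cultures. The p-values set group differences against the spread of these libraries. That spread may be only technical, so the p-values may not extend to other animals.

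Lysosomes are acidic compartments that break down protein, glycans and lipids delivered by endocytosis and by autophagy. Autophagy wraps cytoplasm in a double membrane: the ULK kinases and a lipid kinase complex start the membrane, conjugation enzymes attach ATG8 proteins (the LC3 and GABARAP families) to its lipid, and receptors such as p62 tie cargo to them before fusion with the lysosome. TFEB, TFE3 and their relatives MITF and TFEC are transcription factors of the MiT family, and TFEB and TFE3 are known to bind a short motif near the start of many lysosomal and autophagy genes when nutrient signalling is low. In blood, macrophages, mast cells and dendritic cells carry many lysosomes or lysosome-like granules, and autophagy is known to help maintain blood stem cells.

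Library totals ran from 13323552 to 17926866 counts, of which 53530 to 72635 fell on the 39 members. Libraries of a group correlated across genes at a Spearman coefficient of 0.983 to 0.992, and libraries of different groups at 0.951 to 0.970. The gate genes Kit, Ly6a (Sca1) and Slamf1 (CD150) were present in every library. Kit had a log2 fold change of 0.08 (adjusted p = 0.842), with -0.16 without CML replicate 2, and Ly6a one of 1.03 (adjusted p = 0.173). For Ly6a every CML value lay above every WT value, and for Slamf1 the groups overlapped. Slamf1 had a log2 fold change of -0.80 (adjusted p = 0.0470). It missed the threshold without CML replicate 1 (0.0946) or 3 (0.152) or WT replicate 1 (0.134) or 2 (0.158). It also missed it with scaling by library totals (0.0563) and when a mean of 50 counts was required (0.0520). Of 7 stem cell genes 1 fell, Hlf, with a log2 fold change of -1.36 (adjusted p = 0.0229). Over all genes tested, 7.20% fell. All 7 had a negative log2 fold change, with a median of -0.29. For 2 of the 7, Hlf and Fgd5, every CML value lay below every WT value, against 16.5% of all genes tested. Fgd5, named after its value was seen, was next to the threshold at -1.18 (adjusted p = 0.0501). Hlf missed the threshold without CML replicate 1 (0.0678) or WT replicate 1 (0.141) or 2 (0.0764), and with no filter on low counts (0.102).

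Genes of the lysosome were mostly higher in the CML libraries, and genes of autophagy mostly did not pass the test. Of the 21 lysosome members 12 rose in CML, 1 fell and 8 did not pass (edgeR quasi-likelihood test, Benjamini-Hochberg adjusted p under 0.05 over all genes tested). Of the 16 autophagy members 2 rose, 1 fell and 13 did not pass, and neither of the 2 TFEB family genes passed. Among all 16221 genes tested, 17.4% were called, 10.2% higher and 7.20% lower in CML, so the lysosome count stood above that background and the autophagy count near it. The median log2 fold change was 0.56 over the lysosome members, 0.08 over the autophagy members and -0.004 over all genes tested. The difference between the lysosome and the autophagy members was not tested.

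The group values separated in the same way. All CML values lay above all WT values for 15 of the 21 lysosome members and below them for 1, while this held for 2 and 2 of the 16 autophagy members. Among all genes tested, 35.0% separated so, 18.5% with CML above and 16.5% with CML below. Summed over the 21 genes, the lysosome members stood at 3000.04 to 4230 CPM (counts scaled to a common library size with TMM) in the CML libraries and at 2304 to 2458 in WT. The 16 autophagy members summed to 997 to 1047 CPM in CML and 932 to 1011 in WT, and these ranges overlapped.

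**Figure D1:**
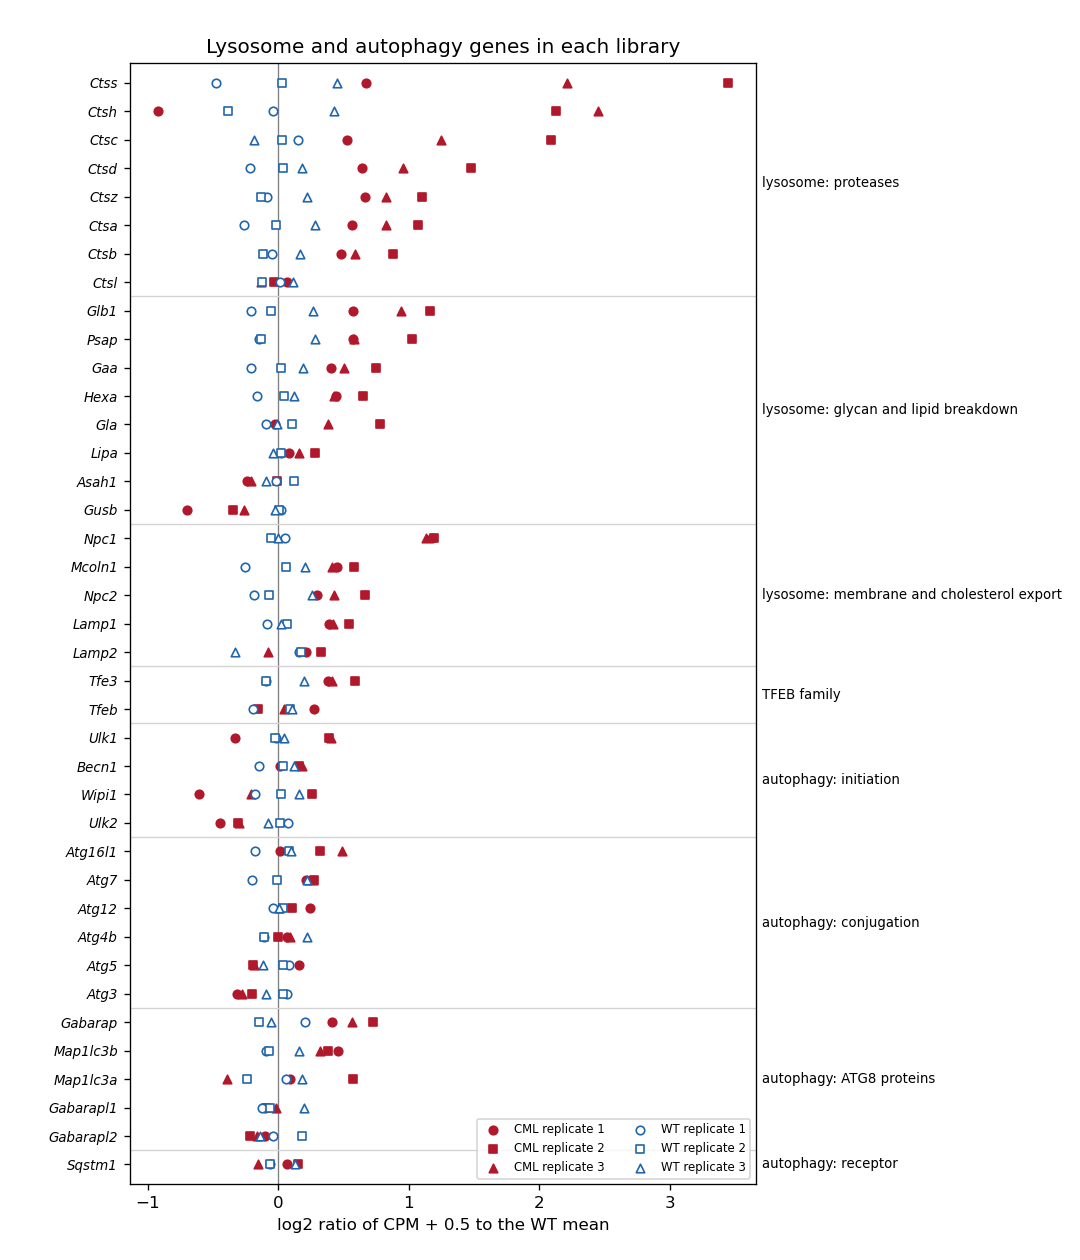
Each point is the log2 ratio of a gene's CPM (plus a pseudocount of 0.5) in 1 library to the mean of the WT libraries on the log scale; filled red symbols are CML, open blue symbols WT, and the symbol shape gives the replicate. The CML points lie to the right of the WT points for 15 of the 21 lysosome members and for 2 of the 16 autophagy members, and CML replicate 2 is the rightmost CML library for 18 lysosome members.

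Cathepsins, the proteases of the lysosome, had the highest median change of the role groups, a log2 fold change of 0.97 over 8 genes, with 4 higher and 0 lower. Ctsd encodes cathepsin D, an aspartic protease, and lies on chromosome 7 from 142375911 to 142388038 (GRCm38). Its level was 388, 692 and 483 CPM in CML replicates 1, 2 and 3 and at 214, 255 and 282 CPM in WT libraries replicates 1, 2 and 3. Every CML library was above every WT library, and the log2 fold change was 1.06 (SE 0.20, adjusted p = 0.00588). Ctsz encodes cathepsin X, a carboxypeptidase (chromosome 2, 174427493 to 174439039). Its level was 43.4, 58.9 and 48.4 CPM in CML and 25.6, 24.7 and 31.7 CPM in WT libraries, without overlap. The log2 fold change of Ctsz was 0.88 (SE 0.15, adjusted p = 0.00134).

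Ctsa, which encodes the protective protein that stabilises beta-galactosidase and neuraminidase in the lysosome (chromosome 2, 164832873 to 164841032), was at 50.5, 71.9 and 60.5 CPM in CML and at 28.2, 33.5 and 41.3 CPM in WT libraries. Its log2 fold change was 0.83 (SE 0.16, adjusted p = 0.00449). Ctsb, the gene of the cysteine protease cathepsin B (chromosome 14, 63122462 to 63145923), was at 163, 214 and 175 CPM against 113, 107 and 131 CPM. It rose by 0.66 on the log2 scale (SE 0.13, adjusted p = 0.00437), and for these genes too the groups did not overlap.

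A further 3 cathepsin genes had larger but less even differences and did not pass. Ctsc encodes cathepsin C, which activates granule proteases by trimming their ends (chromosome 7, 88278085 to 88310888). It stood at 222, 658 and 367 CPM in CML and at 172, 158 and 136 CPM in WT libraries, with log2 fold change 1.42 (SE 0.41, adjusted p = 0.0701). Each CML library lay above each WT library, and CML replicate 2 was far above the other CML libraries. Ctss, whose product trims the invariant chain of MHC class II in antigen-presenting cells, was at 6.72, 48.7 and 20.4 CPM against 2.75, 4.10 and 5.67 CPM. Its log2 fold change was 2.59 (SE 0.85, adjusted p = 0.116), and CML replicate 1 lay just above the highest WT library. Ctsh, an aminopeptidase gene, was scarce, at 0.06, 4.16 and 5.32 CPM in CML and 0.54, 0.32 and 0.93 CPM in WT libraries. CML replicate 1 was below every WT library for Ctsh, and the fold change of 2.40 on the log2 scale had an SE of 1.19 (adjusted p = 0.242).

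Without CML replicate 1 these 3 genes passed, with log2 fold changes of 1.72 for Ctsc (adjusted p = 4.51e-04), 3.04 for Ctss (0.00492) and 2.97 for Ctsh (1.31e-04). Ctsc also passed without CML replicate 2 (log2 fold change 0.93, adjusted p = 0.00721), with DESeq2 (0.0174) and with limma-voom (0.0137), and Ctss with DESeq2 (0.0112). Over the alternatives adjusted p ran from 4.51e-04 to 0.243 for Ctsc, from 0.00492 to 0.333 for Ctss and from 1.31e-04 to 0.631 for Ctsh. Ctsl, the gene of cathepsin L, was at 18.9 to 21.7 CPM in CML and 19.0 to 22.4 CPM in WT libraries, and its log2 fold change of -0.03 had a 95% interval from -0.33 to 0.26.

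Enzymes and cofactors that break down glycans and lipids rose in 4 of 8 cases and fell in 1, with a median log2 fold change of 0.47. Glb1 encodes lysosomal beta-galactosidase (chromosome 9, 114401076 to 114474898). It was at 104, 158 and 135 CPM in CML and at 60.6, 67.4 and 84.6 CPM in WT libraries, without overlap. The log2 fold change of Glb1 was 0.90 (SE 0.17, adjusted p = 0.00338). Psap, the precursor of the saposins that present sphingolipids to their hydrolases (chromosome 10, 60277627 to 60302597), was at 255, 348 and 256 CPM against 154, 156 and 208 CPM. It rose by 0.73 (SE 0.16, adjusted p = 0.00733) on the log2 scale.

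Gaa, the gene of the acid alpha-glucosidase that degrades glycogen (chromosome 11, 119267887 to 119285454), was at 25.9, 32.9 and 27.7 CPM in CML and 16.7, 19.7 and 22.2 CPM in WT libraries. Hexa, which encodes the alpha subunit of the hexosaminidase that cleaves the ganglioside GM2 (chromosome 9, 59539540 to 59565109), was at 81.2, 94.0 and 80.6 CPM against 53.3, 61.5 and 65.0 CPM. Neither pair of groups overlapped, and the log2 fold changes were 0.56 for Gaa (SE 0.15, adjusted p = 0.0216) and 0.51 for Hexa (SE 0.12, adjusted p = 0.0119). Gaa missed the threshold without CML replicate 2 (0.101) or 3 (0.0538) or WT replicate 1 (0.0877) or 2 (0.0884), and the lowest adjusted p of its 13 alternatives was 0.0113. Hexa missed it without CML replicate 2 (0.0622) or WT replicate 1 (0.0538) or 2 (0.0549), with a lowest value of 0.00509.

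Gusb was the lysosome member that fell. It encodes beta-glucuronidase, which cuts glucuronic acid from glycosaminoglycans (chromosome 5, 129989011 to 130003049). Its level was 64.8, 82.6 and 88.0 CPM in CML and 107, 106 and 104 CPM in WT libraries, so every CML library was lower and the WT libraries were nearly level. The log2 fold change was -0.43 (SE 0.13, adjusted p = 0.0345). Gusb missed the threshold without CML replicate 1 (0.0952) or 2 (0.0638) or WT replicate 1 (0.0709) or 2 (0.113), and with scaling by library totals (0.0935), and its lowest adjusted p over the alternatives was 0.0111.

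In this role group 3 genes did not pass. Gla, the alpha-galactosidase A gene, was at 9.85, 17.7 and 13.3 CPM in CML and 9.38, 10.9 and 9.96 CPM in WT libraries, where CML replicate 1 fell among the WT libraries. Its log2 fold change was 0.43 (SE 0.21, adjusted p = 0.171), and it passed without CML replicate 1 at 0.61 (adjusted p = 0.0361; range over the alternatives 0.0361 to 0.610). Lipa, the lysosomal acid lipase gene, was at 33.7, 38.8 and 35.5 CPM against 32.3, 32.2 and 30.9 CPM, a separation that came with a log2 fold change of 0.18 (95% interval -0.08 to 0.43). Asah1, the acid ceramidase gene, was at 123 to 144 CPM in CML and 136 to 158 CPM in WT libraries, with a log2 fold change of -0.15 (95% interval -0.40 to 0.10).

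Among membrane and cholesterol export genes 4 of 5 rose and 0 fell, with a median log2 fold change of 0.46. Npc1 had the lowest adjusted p of the 39 members. Its product moves cholesterol out of the lysosome, taking it from the soluble carrier encoded by Npc2. Npc1 was at 113, 114 and 109 CPM in CML and at 51.4, 47.7 and 49.5 CPM in WT libraries. The libraries of each group were nearly level and far apart between groups, and the log2 fold change was 1.18 (SE 0.11, adjusted p = 1.31e-05). Npc2 (chromosome 12, 84754562 to 84773152) was at 132, 171 and 145 CPM against 94.4, 102 and 128 CPM, a smaller change of 0.46 (SE 0.14, adjusted p = 0.0387), with WT replicate 3 close to CML replicate 1.

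Lamp1 and Lamp2 encode the main glycoproteins of the lysosomal membrane. Lamp1 (chromosome 8, 13159161 to 13175338) was at 169, 189 and 173 CPM in CML and 122, 136 and 132 CPM in WT libraries, without overlap, with log2 fold change 0.45 (SE 0.11, adjusted p = 0.0127). Lamp2 was at 971, 1048 and 793 CPM against 931, 943 and 665 CPM, with overlap, and its log2 fold change was 0.15 (95% interval -0.20 to 0.49). Mcoln1, the calcium channel of the lysosome (chromosome 8, 3500457 to 3515232), was at 22.1, 24.2 and 21.5 CPM against 13.3, 16.7 and 18.5 CPM. The log2 fold change of Mcoln1 was 0.48 (SE 0.15, adjusted p = 0.0464), next to the threshold.

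Npc1 passed under all 13 alternatives. The calls of Npc2, Lamp1 and Mcoln1 were lost on leaving out any of several libraries, with log2 fold changes over the 6 such fits of 0.35 to 0.60 for Npc2, 0.40 to 0.48 for Lamp1 and 0.36 to 0.59 for Mcoln1. Npc2 missed the threshold without CML replicate 2 (0.167) or 3 (0.0921) or WT replicate 1 (0.139) or 2 (0.161), and Lamp1 without CML replicate 2 (0.0726) or WT replicate 1 (0.0556) or 2 (0.0531). Mcoln1 missed it without any library but WT replicate 3 (adjusted p = 0.0650, 0.150 and 0.0950 without CML replicates 1, 2 and 3, and 0.183 and 0.138 for WT replicates 1 and 2), with DESeq2 (0.0614) and with no filter on low counts (0.0612). The lowest adjusted p over the 13 alternatives was 0.00701 for Npc2, 0.00349 for Lamp1 and 0.0185 for Mcoln1.

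Over the 21 lysosome members, the number higher in CML was 15 without CML replicate 1, 8 without CML replicate 2, 9 without CML replicate 3, 7 without WT replicate 1 and 7 without WT replicate 2. With scaling by library totals 12 were higher and 0 lower; over all genes that scaling raised the share of calls that were higher from 58.6% to 73.8%. The 7 members higher under each of the 13 alternatives were Ctsa, Ctsb, Ctsd, Ctsz, Glb1, Psap and Npc1.

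**Figure D2:**
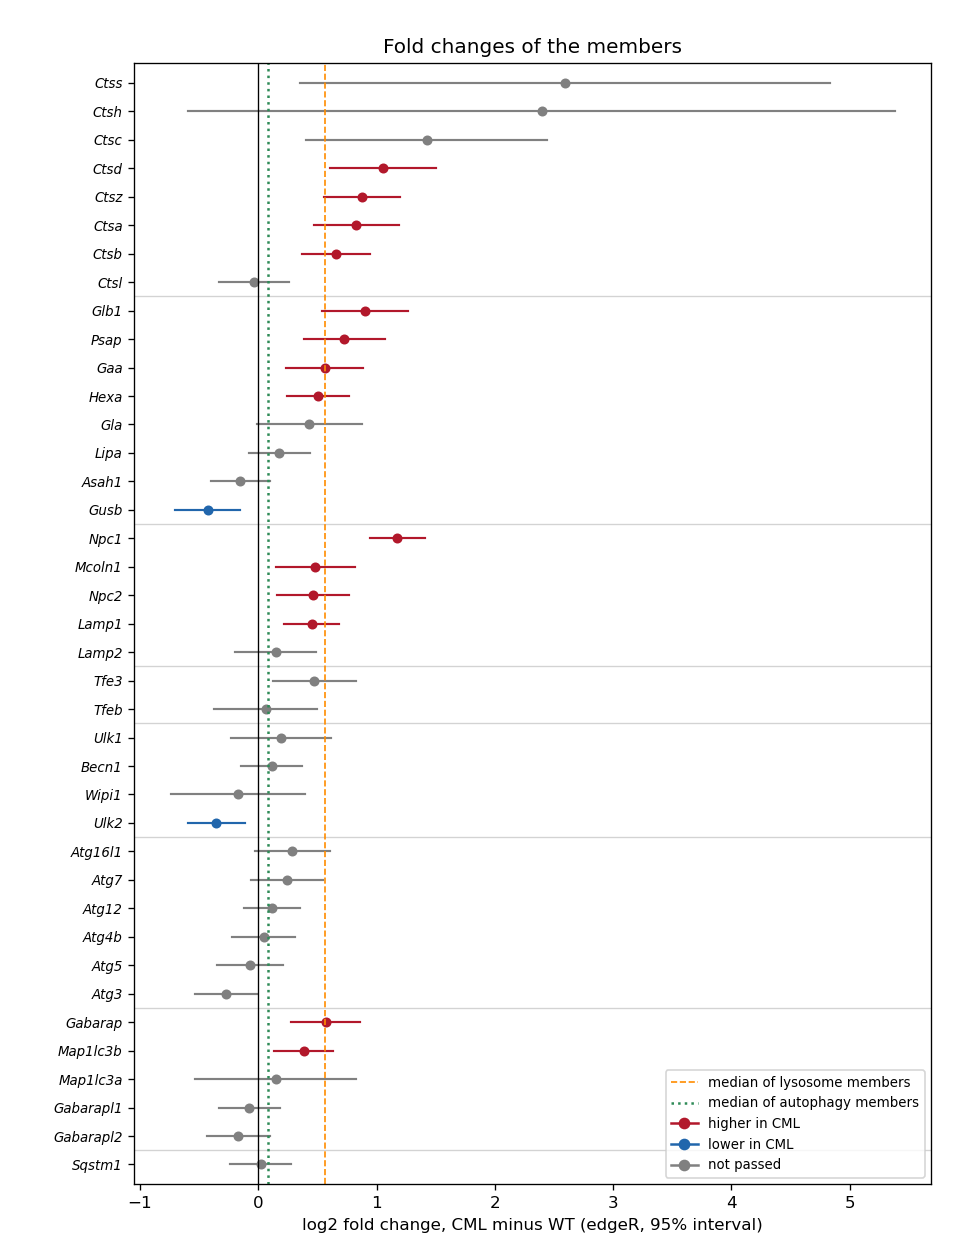
Points are log2 fold changes, CML minus WT, with 95% intervals from the edgeR fit (3 libraries per group); red passed as higher, blue as lower and grey did not pass. The dashed line is the median of the lysosome members (0.56) and the dotted line that of the autophagy members (0.08); most red intervals are in the lysosome blocks, and Ctss, Ctsh and Ctsc have the widest intervals among the cathepsins.

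Promoter sequence was read because TFEB family factors are known to bind an E-box, CACGTG,, and that a longer palindrome around it, the CLEAR consensus, is common near lysosomal genes. RefSeq promoter windows (GRCm38.p6, 250 bases before to 50 after a gene start) were matched for 31 of the 39 members. Searched on both strands, CACGTG was in 7.15% of all 32851 windows, TCACGTG, which contains CACGTG, in 3.77%, and the CLEAR consensus palindrome, which contains both, in 0.326%. Counted per gene, with some genes having several windows, the shares over 27025 genes were 8.09%, 4.29% and 0.370%. TCACGTG was in the windows of 7 of 17 lysosome members (41.2%), 2 of 12 autophagy members (16.7%) and 0 of 2 TFEB family genes, and CACGTG in 8, 3 and 0. The palindrome was in none of the members' windows.

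The stretches that hold TCACGTG are shown for the members with it, 5′ to 3′ on the gene's strand. The capitals mark each TCACGTG or its reverse complement, so that the number and spacing of the sites can be compared. For Ctsa, Ctsd and Mcoln1, 1 of their 2 sites is shown, the one nearest before the RefSeq gene start. These stretches, and that of Atg7, lie inside the span of the annotated gene, not before it. The other site of Ctsd and of Mcoln1 lies before that span.
Lamp1 (chr8:13159069-13159160, plus strand): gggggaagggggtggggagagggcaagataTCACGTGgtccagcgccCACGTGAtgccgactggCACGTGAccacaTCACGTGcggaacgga
Glb1 (chr9:114400999-114401065, plus strand): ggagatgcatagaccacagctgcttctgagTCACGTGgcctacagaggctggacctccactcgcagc
Gaa (chr11:119267792-119267858, plus strand): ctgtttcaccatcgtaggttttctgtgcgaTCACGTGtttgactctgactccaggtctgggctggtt
Ctsd (chr7:142387909-142387936, minus strand): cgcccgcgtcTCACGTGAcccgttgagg
Ctsa (chr2:164833750-164833772, plus strand): gagcaaactgTCACGTGAtgcag
Mcoln1 (chr8:3500463-3500490, plus strand): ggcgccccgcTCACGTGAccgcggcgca
Gla (chrX:134601163-134601255, minus strand): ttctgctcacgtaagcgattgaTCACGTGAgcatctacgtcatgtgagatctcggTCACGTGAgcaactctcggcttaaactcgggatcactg
Atg3 (chr16:45158704-45158794, plus strand): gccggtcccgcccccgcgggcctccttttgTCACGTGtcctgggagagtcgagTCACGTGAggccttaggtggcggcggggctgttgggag
Atg7 (chr6:114670933-114670999, plus strand): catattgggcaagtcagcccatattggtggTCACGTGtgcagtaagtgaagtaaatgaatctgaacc

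Lamp1 had 4 such sites between 61 and 15 bases before its start, more than any other member. Ctsd, Ctsa, Mcoln1, Gla and Atg3 had 2 in their windows, and Glb1, Gaa and Atg7 had 1. Of the 10 lysosome members that rose and had a window, 6 held TCACGTG, and of the 7 other lysosome members with a window 1 did, Gla. For CACGTG the counts were 6 of 10 and 2 of 7. The difference was not tested. Ctsa counts among the 6 through its window from 164833523 to 164833822. Its window from 164832622 to 164832921, at the start of the annotated gene, held 0 sites. The only window of Atg7, from 114670846 to 114671145, lies inside its annotated gene, which starts at 114643097. The autophagy members with the motif, Atg3 and Atg7, did not pass the test. These counts describe the letters of the windows, and binding of any factor was not measured in these data.

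TFEB family transcripts themselves did not pass. Tfeb was at 8.10, 5.91 and 6.82 CPM in CML and 5.74, 7.07 and 7.16 CPM in WT libraries, with the libraries of the groups interleaved. Its log2 fold change of 0.06 had a 95% interval from -0.37 to 0.50. Tfe3 was at 13.998, 16.3 and 14.3 CPM in CML and 9.92, 9.91 and 12.3 CPM in WT libraries, where all CML libraries lay above all WT libraries. The log2 fold change of Tfe3 was 0.47 (SE 0.16, adjusted p = 0.0613). It passed without WT replicate 3 (0.58, adjusted p = 0.0233) and with scaling by library totals (0.57, adjusted p = 0.0402), and its adjusted p ran from 0.0233 to 0.237 over the alternatives.

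The relatives of TFEB that are not members were read from a list of 18 genes of the MiT family and of nutrient sensing at the lysosome. Of these 18 genes 3 rose and 1 fell, beside 10.2% higher and 7.20% lower among all genes tested. Tfec was at 76.6, 83.4 and 79.0 CPM in CML and 47.6, 53.9 and 44.3 CPM in WT libraries (log2 fold change 0.71, SE 0.12, adjusted p = 0.00119). Mitf, also a regulator of mast cell development, was at 18.5, 43.0 and 24.2 CPM against 12.4, 9.79 and 10.7 CPM (log2 fold change 1.37, SE 0.29, adjusted p = 0.0140). Mitf missed the threshold without WT replicate 1 (0.0867), 2 (0.0701) or 3 (0.0713). Rragd, a Rag GTPase gene, was scarce, at 0.94, 1.82 and 1.25 CPM against 0.54, 0.13 and 0.50 CPM (log2 fold change 1.75, adjusted p = 0.0273). It missed the threshold without CML replicate 2 (0.114) or 3 (0.0677) or WT replicate 2 (0.124) and with DESeq2 (0.0592). Rragb, another Rag GTPase gene and named after its value was seen, was the member of that list that fell, with a log2 fold change of -0.52 (adjusted p = 0.0477).

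Autophagy initiation genes gave 0 calls higher and 1 lower among 4. Ulk2, a kinase that starts autophagosome formation (chromosome 11, 61775649 to 61855073), was at 60.4, 66.6 and 66.8 CPM in CML and 86.9, 83.0 and 77.9 CPM in WT libraries. All CML libraries were below all WT libraries, and the log2 fold change was -0.35 (SE 0.11, adjusted p = 0.0430). Ulk2 missed the threshold without any library but WT replicate 3, at 0.100, 0.0999 and 0.105 for the CML replicates and 0.125 and 0.149 for WT replicates 1 and 2. It also missed it with scaling by library totals (0.138) or where a mean of 50 counts was required (0.0506), and the lowest adjusted p of the 13 alternatives was 0.0173. The paralogue Ulk1 was at 10.7, 18.02 and 18.2 CPM against 13.5, 13.4 and 14.1 CPM, so that CML replicate 1 lay below and the other CML libraries above the WT libraries. Its log2 fold change was 0.19 (95% interval -0.23 to 0.62). Becn1, a subunit gene of the lipid kinase complex, was at 55.7 to 62.7 CPM in CML and 49.7 to 59.98 CPM in WT libraries (log2 fold change 0.12, 95% interval -0.14 to 0.37). Wipi1, whose product reads the lipid made by that complex, was at 3.01 to 5.91 CPM and 4.24 to 5.48 CPM (log2 fold change -0.17, 95% interval -0.74 to 0.40).

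None of the 6 conjugation genes passed with edgeR, DESeq2 or limma-voom, 1 of them (Atg3) had an unadjusted p under 0.05 with edgeR, and their log2 fold changes ran from -0.27 to 0.29 with a median of 0.08. Atg3, the enzyme gene that hands ATG8 proteins to lipid, was at 25.9, 28.1 and 26.5 CPM in CML and 33.9, 33.1 and 30.2 CPM in WT libraries. The Atg3 groups did not overlap, and the log2 fold change was -0.27 (SE 0.12, adjusted p = 0.142). Atg7, which activates ATG8 proteins and ATG12, was at 25.8 to 27.0 CPM against 19.2 to 25.9 CPM, with a log2 fold change of 0.24 (95% interval -0.06 to 0.55). Atg16l1, a part of the complex that directs conjugation to the membrane, had one of 0.29 (95% interval -0.03 to 0.60). For Atg5 and Atg12, whose products are joined in that same complex, the log2 fold changes were -0.07 (95% interval -0.35 to 0.21) and 0.12 (-0.12 to 0.36). Atg4b, the protease gene that trims ATG8 proteins, had a log2 fold change of 0.04 (-0.22 to 0.31). For Atg5, Atg12 and Atg4b a change by a factor of 2 lay outside these intervals.

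Among the ATG8 genes, 1 of the LC3 branch and 1 of the GABARAP branch rose. Gabarap (chromosome 11, 69991143 to 69994951) was at 52.5, 65.5 and 58.3 CPM in CML and 45.5, 35.4 and 37.9 CPM in WT libraries, without overlap. The log2 fold change of Gabarap was 0.57 (SE 0.13, adjusted p = 0.0108). Map1lc3b, which encodes LC3B (chromosome 8, 121590361 to 121598760), was at 210, 200 and 192 CPM against 144, 146 and 172 CPM, with log2 fold change 0.38 (SE 0.11, adjusted p = 0.0357). Gabarap missed the threshold without CML replicate 2 (0.0527) or WT replicate 2 (0.0801), with a lowest value of 0.00370 over the alternatives. Map1lc3b missed it without any library but WT replicate 3 (0.0859, 0.103 and 0.0864 without CML replicates 1, 2 and 3, and 0.128 and 0.175 for WT replicates 1 and 2) and with no filter on low counts (0.0630), with a lowest value of 0.00573.

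Their paralogues did not pass. Gabarapl1 was at 73.1, 73.6 and 77.3 CPM in CML and 71.7, 74.8 and 90.0 CPM in WT libraries (log2 fold change -0.08, 95% interval -0.34 to 0.18). Gabarapl2 was at 37.0, 34.1 and 35.5 CPM against 38.7, 45.1 and 36.1 CPM (-0.17, -0.44 to 0.10). Map1lc3a was scarce, at 1.88 to 4.16 CPM in CML and 2.15 to 3.05 CPM in WT libraries. The differences between paralogues were not tested. Sqstm1 encodes p62, the receptor that links ubiquitinated cargo to LC3. It was at 177, 188 and 152 CPM in CML and 162, 162 and 185 CPM in WT libraries, interleaved, with a log2 fold change of 0.02 and a 95% interval from -0.24 to 0.28. Without each library in turn, the number of autophagy members higher in CML ran from 0 (without CML replicate 2 or WT replicate 2) to 2, and the number lower from 0 to 1.

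Levels were compared between genes per kilobase of annotated exon. In WT the most abundant members on that scale were Ctsd at 106, Lamp2 at 88.6, Psap at 63.0, Sqstm1 at 50.5 and Lamp1 at 48.5 CPM per kb. In CML the order began with Ctsd at 222, Psap at 104, Lamp2 at 98.1, Ctsc at 71.5 and Lamp1 at 66.3 CPM per kb, with Sqstm1 at 51.4. Ctsc had been at 26.7 CPM per kb in WT. At the low end stood Ctsh, at 0.13 CPM per kb in WT and 0.71 in CML, and Wipi1, Tfe3 and Tfeb, at 0.99 to 1.61 CPM per kb in either group. Among the ATG8 genes Gabarapl1 was the most abundant per length in WT, at 39.2 CPM per kb against 21.5 for Gabarap, 20.5 for Map1lc3b, 17.2 for Gabarapl2 and 2.24 for Map1lc3a. In CML these were at 37.1, 31.9, 26.7, 15.3 and 2.50 CPM per kb.

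**Figure D3:**
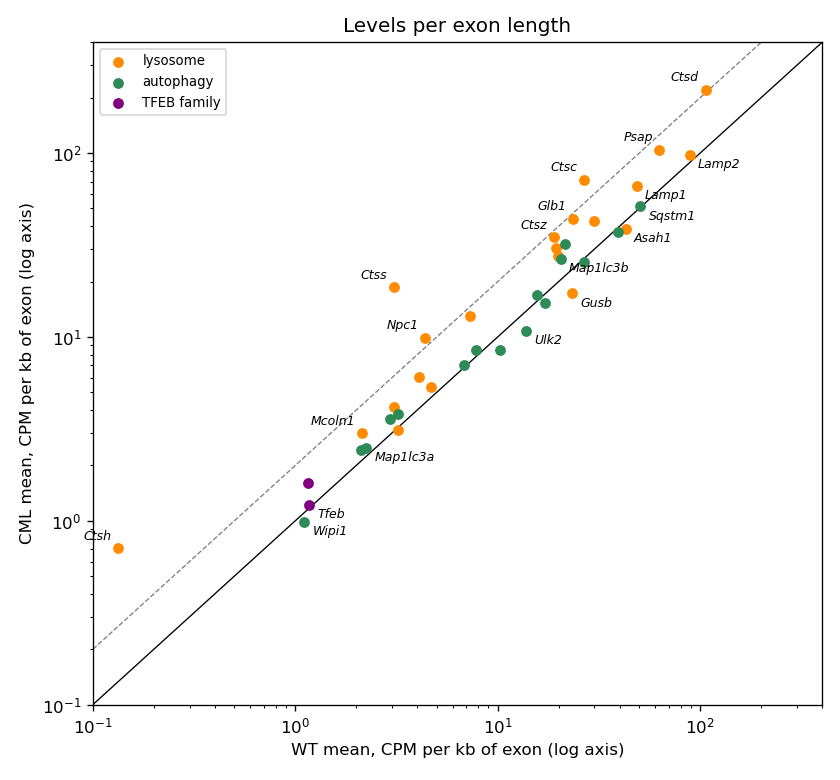
Each point is a member, with its mean CPM per kb of exon in WT on the x axis and in CML on the y axis (log axes, means of 3 libraries). The solid line is equality and the dashed line a level in CML of 2 times that in WT; Ctsd, Ctsc, Ctss, Npc1 and Ctsh lie above the dashed line, and most autophagy genes lie near the solid line.

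Within the CML group the lysosome members followed a common order of libraries. CML replicate 2 was the highest CML library for 18 of the 21 lysosome members, and for each of the 12 that rose, against 33.0% of all genes tested. The order replicate 1, replicate 3, replicate 2 from low to high held for 14 of the 21, 4 of the 16 autophagy members and 19.8% of all genes tested. As a median over genes, the log2 ratio to the WT mean was 0.44, 0.78 and 0.50 in CML replicates 1, 2 and 3 for the lysosome members. For the autophagy members it was 0.04, 0.15 and -0.01, and in the WT libraries it ran from -0.09 to 0.17 for the lysosome and from -0.05 to 0.11 for the autophagy members.

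Markers of some other cell types also rose in CML. Over 16 mast cell and basophil genes, 9 of the 15 tested rose and 0 fell. Their summed level was 2692, 8819 and 5710 CPM in CML replicates 1, 2 and 3 against 363 to 594 CPM in WT libraries. Most lysosome members had this order of the CML libraries. The sums of the gate, monocyte and macrophage, dendritic cell and erythroid lists had it too. Those of the stem cell, neutrophil and lymphoid lists did not. Hdc, the histamine-forming enzyme gene, rose by 5.88 on the log2 scale. Tpsab1, a tryptase gene, rose by 4.14 but was scarce, at 1.19, 3.28 and 1.44 CPM in CML and at most 0.25 CPM in WT libraries. Mcpt1 and Mcpt2 were at 0 in every WT library. Of 18 monocyte and macrophage genes 6 of the 11 tested rose and 0 fell. Their sums were 392, 481 and 407 CPM in CML replicates 1, 2 and 3 and 248 to 319 CPM in WT. Lyz2 and F13a1 are named after their values were seen. Lyz2 held 247, 221 and 223 CPM of the CML sums and 208, 215 and 261 CPM of the WT sums. It had a log2 fold change of 0.01 (adjusted p = 0.956). F13a1 was the only gene tested with a negative one (-0.53, adjusted p = 0.451). Adgre1 (F4/80) rose by 5.48 and Csf1r by 2.38, while C1qa, C1qb, C1qc and Mertk reached at most 0.58 CPM (Mertk in CML replicate 2), and C1qa was at 0 in all but CML replicate 2.

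Dendritic cell genes rose in 6 of 10 tested of 14, Batf3 and Irf4 among them. Only Irf8, named after its value was seen, had a negative log2 fold change (-0.49, adjusted p = 0.302). Cd209a, Clec9a, Siglech and Xcr1 were too scarce to test, and Siglech was lower in every CML library. The list summed to 100, 337 and 336 CPM in CML replicates 1, 2 and 3 and 30.3 to 59.1 CPM in WT libraries. Cd74, also named after its value was seen, held 40.9, 158 and 136 CPM of the CML sums. Batf3 was scarce, at 0.82, 1.61 and 1.19 CPM in CML and at most 0.18 CPM in WT libraries. Irf4 (log2 fold change 3.95) missed the threshold without WT replicate 1 (adjusted p = 0.0635). Of 15 neutrophil genes 0 of the 8 tested were called by edgeR and 2 had an unadjusted p under 0.05 (lowest adjusted p 0.0593, Ltf), and the list had sums of 158 to 261 CPM in CML and 128 to 253 CPM in WT libraries. Smaller marker lists gave 2 higher and 0 lower of 4 lymphoid genes tested (Cd79b and Tcf7 rose) and 1 higher and 1 lower of 5 erythroid genes (Klf1 rose, Hbb-bs fell). Tcf7 and Klf1 were scarce, at 2.01 to 5.01 and 0.69 to 2.99 CPM in CML and at most 0.31 and 0.25 CPM in WT libraries. Hbb-bs missed the threshold without WT replicate 1 (0.0793) and with no filter on low counts (0.0532). In these bulk libraries, more cells of a type and more RNA of a gene per cell cannot be told apart. The part of other cell types in the lysosome result was not tested.

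The other genes of the pathway were read from further lists. Of 95 lysosomal genes on these lists 90 were tested: 30 rose and 2 fell in CML, with a median log2 fold change of 0.28. Of 52 further autophagy genes, all tested, 7 rose and 0 fell, with a median of 0.14. The backgrounds are the 10.2% higher and 7.20% lower of all genes tested. All CML values lay above all WT values for 47 of the 90 lysosomal and 16 of the 52 autophagy genes, and below them for 3 and 4, against 18.5% and 16.5% of all genes tested.

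Other hydrolases and their cofactors rose in 14 of 32 tested and fell in 1. Tpp1, a lysosomal peptidase gene, was at 95.3, 127 and 100 CPM in CML and 60.8, 65.7 and 68.7 CPM in WT libraries (log2 fold change 0.73, SE 0.13, adjusted p = 0.00218). Dnase2a, which degrades DNA in the lysosome, rose by 0.77. Galc, which removes galactose from galactosylceramide, was the gene of that list that fell, with a log2 fold change of -0.62 (adjusted p = 0.0114), and is named after its value was seen. Other membrane proteins rose in 6 of 28 and fell in 0. Slc15a3, a peptide and histidine transporter of the lysosome, was at 23.4, 27.0 and 18.5 CPM in CML and 1.31, 0.95 and 2.06 CPM in WT libraries, with log2 fold change 3.99 (SE 0.26, adjusted p = 5.80e-07). Ctns, the cystine exporter gene, rose by 1.08 and Clcn7, a chloride and proton exchanger gene, by 0.69.

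Subunits of the V-ATPase, the pump that acidifies the lysosome, rose in 7 of 17 and fell in 0. Atp6v1a, its catalytic subunit gene, was at 396, 396 and 343 CPM in CML and 270.2, 277 and 246 CPM in WT libraries (log2 fold change 0.52, SE 0.12, adjusted p = 0.00789). Tcirg1 rose by 0.72 and Atp6v0c by 0.48. Tcirg1 missed the threshold without WT replicate 2 (adjusted p = 0.0520), and Atp6v0c without CML replicate 2 (0.0532) or WT replicate 2 (0.0580). Genes that sort enzymes to the lysosome rose in 3 of 13 and fell in 1. Igf2r, the large mannose 6-phosphate receptor, was at 5.71, 6.13 and 6.07 CPM against 0.72, 0.88 and 2.18 CPM (log2 fold change 2.24, adjusted p = 9.18e-04), and Sort1, a sorting receptor, rose by 0.67. Ap3b1, a subunit gene of the AP-3 adaptor, fell by 0.65 on the log2 scale.

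Among further autophagy genes, initiation and membrane supply rose in 2 of 19, Tmem41b (0.56) and Zfyve1 (0.62). In conjugation Atg4a rose (0.58) of 5, among receptors Bcl2l13 (0.42) of 14, and in fusion Vps18 (0.51), Tecpr1 (0.86) and Snap29 (0.42) of 14. Each of these calls but that of Tmem41b was lost without at least 1 library: Zfyve1 without WT replicate 2 (adjusted p = 0.0720), and Atg4a without CML replicate 1 (0.0740) or 2 (0.101) or WT replicate 1 (0.120) or 2 (0.0812). The calls of Bcl2l13, Vps18 and Tecpr1 were lost without CML replicate 2 or 3 or WT replicate 1 or 2, with adjusted p up to 0.144, 0.156 and 0.170. Snap29 lost its call without CML replicate 2 or 3 or WT replicate 2 or 3 (up to 0.204), and also with DESeq2 (0.0557), limma-voom (0.0560) or no filter (0.0543), and Tecpr1 with limma-voom (0.0575).

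**Figure D4:**
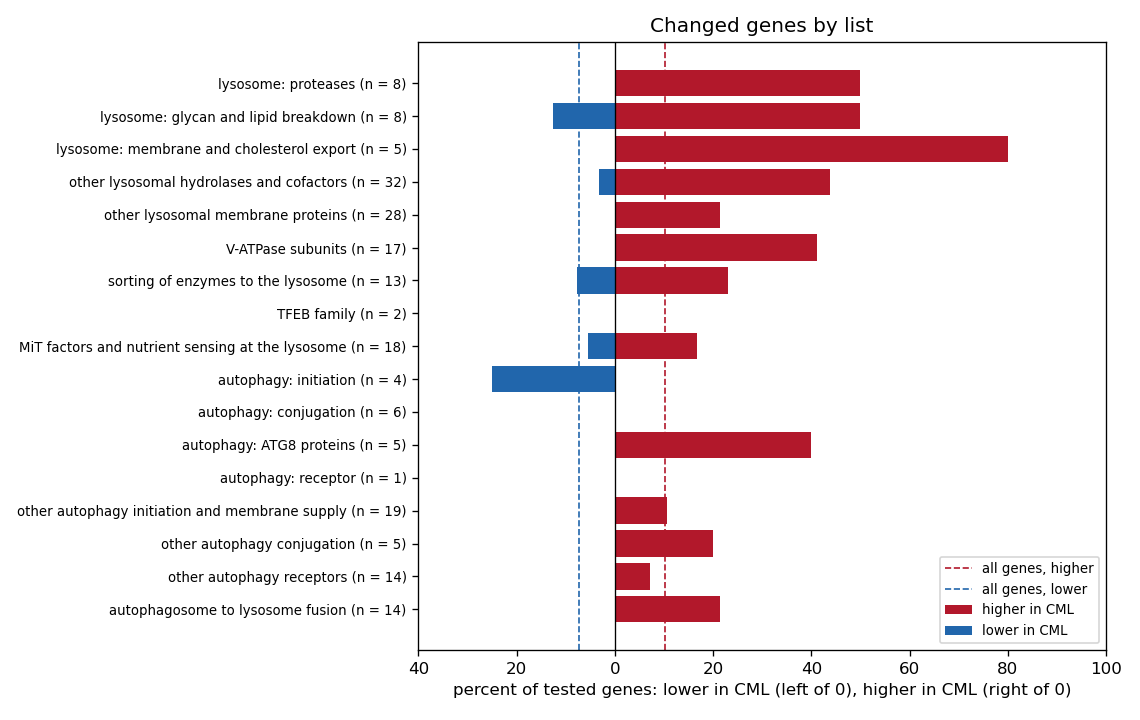
Bars give the percent of tested genes in each list called higher (right, red) or lower (left, blue) in CML by the edgeR test; n is the number of genes tested, and dashed lines mark the shares over all genes tested (10.2% higher, 7.20% lower). The member groups of the lysosome reach 4 of 8, 4 of 8 and 4 of 5 higher, the V-ATPase list 7 of 17, and the autophagy lists 0 to 2 of 5.

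Some members share exon sequence with another annotated gene, and the strand setting of the counting is not given in the sources used here. Ctsd shares 34.4% of its exon bases with a gene model on the same strand that is not in the table, and Becn1 shares 43.9% of its own with Cntd1 on the opposite strand, at 2.09 CPM in CML against 1.41 CPM in WT. For Lamp1 the shared part was 9.3%, with Grtp1 on the opposite strand, at 6.08 CPM in CML against 1.83 CPM in WT. The part of shared reads in the call of Lamp1 was not tested. Ctsb shares 12.8% with Fdft1 on the opposite strand, at 41.3 CPM in CML against 40.1 CPM in WT. Ctsl shares 26.8% with an antisense gene model and 6.1% with a pseudogene on its own strand. Levels of genes with shared exons are uncertain to that extent, since the division of shared reads is not given.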

How the data were processed

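The authors deposited 1 table of estimated counts per gene, not scaled, of which 28.1% to 30.3% per library lay more than 0.01 from a whole number. The submitters' processing notes name mm10 as build and, without their roles, STAR 2.7.3a and Partek 8.0. Annotation and strand setting are not stated in the sources used here. Per the labels' protocols, RNA came from a column kit and libraries from a transposase-based kit. Groups and replicate numbers were read from the sample titles.

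Counts were rounded. The filter was filterByExpr (minimum count 10), which left 16221 of 29872, with at least 99.67% of each library. The test was edgeR's quasi-likelihood F test (version 4.0.16, R 4.3.3, TMM scaling, robust, group only), with Benjamini-Hochberg adjustment over all genes and 0.05 as threshold. Standard errors and 95% intervals came from its F statistic. CPM are scaled by TMM. Exon lengths and coordinates are from GENCODE M21 (GRCm38), matched by symbol (96.7% of symbols, all 39 members). The pipeline was tested on simulated counts. Alternatives were 2 other scalings, 2 other filters, DESeq2 1.42.0, limma-voom (limma 3.58.1), the replicate number as a block, and leaving out each library. Same-numbered libraries of the groups did not deviate together (correlations of -0.03, -0.047 and 0.01). That check cannot show whether they were handled together, so pairing by number remains unknown. No 2 libraries differed by as little as sampling noise (lowest chi-square per degree of freedom 8.76).

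Members and lists were chosen with earlier results of these data known. All members are reported. From each pathway list up to 3 called genes with the lowest adjusted p are named, from each marker list up to 2, and the gate genes. Other names are said to be chosen after their values were seen, or are marker genes given for their levels at or near 0. Some genes that this rule names, and the megakaryocyte list, are not reported here.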

Additional observations from a re-analysis of the deposited data

How the results depend on the processing

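Of the 39 members, the 7 higher ones Ctsa, Ctsb, Ctsd, Ctsz, Glb1, Psap and Npc1 passed under all 13 alternatives, while the 7 other higher ones and the 2 lower ones missed the threshold under at least 1. With scaling by relative log expression the counts of changed members were as in the main test. With scaling by library totals the lower calls of lysosome and autophagy members fell to 0 and 0, the lower calls over all genes to 732 (73.8% of calls higher), and the autophagy median rose to 0.175. The lower autophagy count was also 0 with a mean of at least 50 counts, and the higher one 1 with no filter on low counts. With a replicate block, though it is not known whether the numbers pair libraries, 14 lysosome members and 2 autophagy members changed, 0 of the latter lower. In all 2807 genes changed against 2820. Ctss passed, Ulk2 was lost and no other member changed its call. Leaving out 1 library gave 1466 to 4122 changed genes, 1011 to 2021 higher and 455 to 2101 lower. It gave 7 to 15 changed lysosome members, 7 to 15 higher and 0 to 1 lower, with a median of 0.454 to 0.659. It gave 0 to 3 changed autophagy members, 0 to 2 higher and 0 to 1 lower, with a median of -0.000608 to 0.139. Signs changed in genes that did not pass. Scaled by library totals, Ctsl was at 0.062, Atg5 at 0.033 and Gabarapl1 at 0.016. Sqstm1 was at -0.006 with no filter and -0.001 with DESeq2. Without 1 library the ranges were -0.102 to 0.019 for Ctsl, -0.003 to 0.253 for Lamp2, -0.066 to 0.165 for Tfeb, -0.45 to 0.032 for Wipi1, -0.017 to 0.159 for Atg4b, -0.173 to 0.391 for Map1lc3a, -0.148 to 0.025 for Gabarapl1, -0.043 to 0.103 for Sqstm1 and -0.16 to 0.303 for Kit. The cause of these shifts was not tested. Groups of 3 libraries and scarce transcripts (Ctsh, Map1lc3a, Wipi1) limit what could be called.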
